A study of Mus musculus with 8 samples.

Results

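The levels of 9 genes of the transforming growth factor-β (TGF-β) pathway were followed through single cells of transplanted mouse lungs, namely the ligand genes Tgfb1, Tgfb2 and Tgfb3, the receptor genes Tgfbr1, Tgfbr2 and Tgfbr3, the signal carrier Smad3, its inhibitor Smad7, and Ltbp4, which codes for a protein that binds latent TGF-β. The genes were chosen by name and not by a threshold on their values, but with earlier results of these data known. They are 9 of the 17921 genes in the deposited count table, and each was summed for every mouse within the 11 deposited cell types and the 11 numbered clusters into which the deposited annotation divides the structural cells.

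TGF-β ligands are secreted in a latent form, held by their own propeptide and by latent TGF-β binding proteins that anchor the complex in the extracellular matrix, and integrins or proteases release them. The active ligand binds the type II receptor TGFBR2, which recruits and phosphorylates the type I receptor TGFBR1, while the co-receptor betaglycan, the product of Tgfbr3, presents ligand and binds TGF-β2 most strongly. TGFBR1 phosphorylates SMAD2 and SMAD3, which enter the nucleus with SMAD4, and the signal induces its own inhibitor SMAD7. In the lung the pathway is best known for driving matrix genes in fibroblasts, for maintaining alveolar macrophages and for restraining T cells.

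The samples were left lungs transplanted orthotopically into male C57BL/6 (B6) mice without immunosuppression and taken 1 month later. In the B6→B6 group (5 mice) the donor was also B6, and in the HLA→B6 group (3 mice) the donor came from a C57BL/6 line called HLA that carries the transgene Tg(HLA-A2.1)1Enge for a human class I antigen, the named difference between donor and recipient. Every graft of both groups was therefore a transplanted lung, and no untransplanted lung was among them. Each library was made by droplet 3′ sequencing with 10000 cells loaded, and a cell's reads were counted as unique molecular identifiers (UMIs). Age was not given in the sources used here.

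The table held 20778 cells and 43747478 UMIs. A mouse contributed 868 to 6544 cells and 1669076 to 12445769 UMIs, with a median of 1356 to 1948 UMIs per cell. The libraries shared cell barcodes, most of all B6→B6 2 and HLA→B6 2 (160), B6→B6 1 and B6→B6 2 (112) and B6→B6 1 and HLA→B6 2 (70), while other pairs shared 0 to 40. These 3 libraries and B6→B6 3 were treated as a linked set in an alternative fit, and leaving out cells with a shared barcode removed 793 cells (3.817%). Values below are a gene's UMIs in the summed cells per 1000000 UMIs of those cells (CPM), given for mice with at least 10 cells of the population. The mouse was the replicate throughout, and all intervals cover counting error only.

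The deposited labels were checked against marker genes. Clusters 0, 1, 2 and 5 had median summed levels of 6757 to 16678 CPM for 6 endothelial markers, although clusters 1 and 2 are labelled epithelial in the deposited table. Cluster 3, labelled fibroblasts and smooth muscle, carried markers of both. It also carried the endothelial markers, at 1968 to 2420 CPM in B6→B6 and 3997 to 4136 CPM in HLA→B6 mice. In each HLA→B6 mouse their sum was above that of the fibroblast markers. Cluster 4 was dominated by red cell genes, and cluster 7, also labelled epithelial, by platelet genes, so these clusters are called here by number. In cells labelled alveolar macrophages all 5 markers of the type were detected, but their summed level was 8805 to 11222 CPM in the B6→B6 mice and 3632, 340 and 4339 CPM in HLA→B6 mice 1, 2 and 3. HLA→B6 2 thus carried almost none of the defining marker signal in cells with that label.

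Tgfb1 was the most widely measured of the 9 genes, with 9690 UMIs, and it was found in all 16 populations that could be ordered (those with at least 10 cells in 3 or more mice). It encodes TGF-β1, the main ligand of leukocytes and platelets. Its highest mean was in cluster 7, at 876 ± 408 CPM (SD, n = 5), but this rested on few UMIs, from 7 to 16 in a mouse. Monocytes came next at 507 ± 112 CPM (n = 8), followed by B cells at 293 ± 70.3 CPM and alveolar macrophages at 273 ± 24.8 CPM. In every one of the 8 mice Tgfb1 was higher in monocytes than in B cells, with an exact sign permutation p of 0.0078, the smallest that 8 mice allow, and 0.117 after Benjamini-Hochberg adjustment over 15 neighbouring pairs. B cells and alveolar macrophages did not differ beyond their spread, since 4 of 8 mice went each way. The lowest level, 10.7 ± 12.3 CPM, was in the red cell cluster 4.

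Tgfb2 and Tgfb3 were sparse. They encode the ligands better known from development and mesenchymal tissue. Tgfb2 had 94 UMIs in all cells and none in B cells, monocytes or natural killer cells. Its highest mean was in cluster 3, at 68.9 ± 70.8 CPM (n = 6), where B6→B6 mice 1, 3 and 4 had 164, 150 and 54.8 CPM and HLA→B6 mice 1, 2 and 3 had 16.2, 0 and 28.2 CPM. The B6→B6 values were all above the HLA→B6 values (groups were apart in this way for 20.9% of the 1260 genes tested in cluster 3), but they came from 3, 17 and 6 UMIs against 6, 0 and 1, and Tgfb2 did not pass the filter on low counts in this cluster. Pooled over all mice, also B6→B6 2 and 5 with 6 and 7 cells and no Tgfb2 UMI, and with Poisson 95% intervals, the levels were 102 CPM (66.5 to 149) and 16.1 CPM (6.46 to 33.1). The marker make-up of cluster 3 also differed between these mice, as given below, and its part in the Tgfb2 values was not tested. Tgfb3 had 89 UMIs in all cells, and cluster 3 again led with 51.2 ± 31.2 CPM, from 11 UMIs in the 3 B6→B6 and 13 in the 3 HLA→B6 mice.

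Tgfbr1 and Tgfbr2, which encode the 2 receptor chains that signal, both reached their highest mean level over all mice in alveolar macrophages. Tgfbr1 stood at 154 ± 36.5 CPM there (n = 8), and 60.3% of its 2422 UMIs came from these cells. The label held 9332603 of all 43747478 UMIs. Of the label's UMIs 3672924 came from HLA→B6 2, the mouse with almost none of the marker signal. All 8 mice had more Tgfbr1 in alveolar macrophages than in monocytes, the next population at 64.2 ± 18.6 CPM (exact sign permutation p = 0.0078, adjusted 0.117). It was also higher there than in each of the other populations in every mouse that had both. T cells, by contrast, were at 20.3 ± 6.54 CPM and B cells at 21.8 ± 9.18 CPM. Tgfbr2 was broader. Alveolar macrophages averaged 153 ± 63.9 CPM, cluster 5 had 110 ± 25.8 CPM (n = 7) and the cells labelled leukocytes, which carry neutrophil markers, had 109 ± 46.8 CPM (n = 7). Over all mice these 3 did not differ beyond their spread: alveolar macrophages were above cluster 5 in 4 of 7 mice. The order of their means was not the same in the 2 groups. In B6→B6 grafts alveolar macrophages averaged 190 CPM, cluster 5 105 CPM and leukocytes 106 CPM. In HLA→B6 grafts alveolar macrophages averaged 92.0 ± 36.6 CPM (n = 3). Cluster 5 averaged 116 ± 16.5 CPM (n = 3, from 21 UMIs) and leukocytes 116 ± 36.0 CPM (n = 2, from 62 UMIs). These HLA→B6 means lay within their spread, so their order there is not settled.

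Because these receptor genes shared that leading population in the mean over all mice, the 250 bases before their start sites are shown, from RefSeq on GRCm38.p6. Capitals mark the motifs GGGCGG (the GC box) and GAGGAA (the core bound by ETS factors such as PU.1) where they were found on the printed strand or the other. The Tgfbr1 window is chr4:47352972-47353221 on the plus strand and the Tgfbr2 window is chr9:116175364-116175613 on the minus strand.
Tgfbr1: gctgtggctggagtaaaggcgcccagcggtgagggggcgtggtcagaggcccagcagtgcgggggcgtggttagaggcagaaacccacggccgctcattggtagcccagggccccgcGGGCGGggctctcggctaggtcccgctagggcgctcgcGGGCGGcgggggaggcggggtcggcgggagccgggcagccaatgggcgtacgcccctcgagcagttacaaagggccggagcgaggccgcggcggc
Tgfbr2: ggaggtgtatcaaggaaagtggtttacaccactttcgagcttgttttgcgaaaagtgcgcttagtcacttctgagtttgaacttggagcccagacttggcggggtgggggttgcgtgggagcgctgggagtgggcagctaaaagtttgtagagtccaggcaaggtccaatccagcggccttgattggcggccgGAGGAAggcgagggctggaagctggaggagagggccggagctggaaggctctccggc

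The windows differ in make-up. The Tgfbr1 window is 74.8% G and C with 2 GGGCGG matches and 0 GAGGAA matches, and the Tgfbr2 window is 58.4% G and C with 0 GGGCGG matches and 1 GAGGAA match. GGGCGG occurs on either strand in 32.7% of 32851 RefSeq promoters and GAGGAA in 23.3%. The SMAD-binding letters CAGACA, found in 17.1% of promoters, had 0 matches in both windows. RefSeq entries were matched for 6 of the 9 genes.

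Tgfbr3 followed another pattern: 67.8% of its 488 UMIs came from structural cells, which held 8718951 of the 43747478 UMIs of all genes. Cluster 3 had 73.7 ± 16.8 CPM (n = 6), cluster 2 had 56.6 ± 28.4 CPM and cluster 1 had 56.5 ± 39.7 CPM (n = 8 each), and these did not differ beyond their spread. When cells with shared barcodes were left out, cluster 1 led. Among leukocytes Tgfbr3 was highest in monocytes, at 19.0 ± 12.6 CPM, above T cells in all 8 mice (6.32 ± 5.97 CPM, exact sign permutation p = 0.0078, adjusted 0.117). Natural killer cells had 0 UMIs.

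Smad3, the carrier of the signal to the nucleus, was low everywhere, with 342 UMIs in all cells. Natural killer cells had the highest mean, 34.6 ± 21.1 CPM (n = 8), from 3 to 14 UMIs in a mouse. Cluster 5 (28.4 ± 26.8 CPM) and the cells labelled leukocytes (26.5 ± 26.9 CPM, n = 7 each) came next, within the spread, so the order of these 3 is not settled. Natural killer cells were above T cells (13.1 ± 5.76 CPM) and B cells (6.64 CPM) in all 8 mice. Alveolar macrophages, which led for both signalling receptors in the mean over all mice, had 1.66 CPM of Smad3.

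Smad7, the feedback inhibitor, was high in endothelial clusters and, among leukocytes, in T cells. Cluster 0, which the deposited table calls MHC II+ endothelial cells, had 209 ± 79.3 CPM (n = 8) and cluster 5, called Vcam1+ endothelial cells, had 191 ± 79.5 CPM (n = 7). The order of these 2 clusters is not settled, since 4 of 7 mice had more in cluster 0, and leaving out B6→B6 2 put cluster 5 first. T cells had 92.9 ± 21.4 CPM and gave 31.7% of the 2561 UMIs, while they held 9148543 of the 43747478 UMIs of all genes. Alveolar macrophages had only 4.22 ± 5.08 CPM, from 26 UMIs, and B6→B6 mice 2 and 5 had none. In all 8 mice Smad7 was lower in alveolar macrophages than in cluster 0.

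The share of cells with a Smad7 UMI gave the same order. It was 21.5% in cluster 0 at a median of 1068.5 UMIs per cell and 13.8% in T cells at 1648 UMIs, against 0.922% in alveolar macrophages at 2791.5 UMIs, so the deepest of these cells had the lowest share. After each cell was thinned to 500 UMIs the shares were 10.5%, 3.94% and 0.193%.

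Ltbp4 was a structural cell gene in these grafts, with 89.6% of its 914 UMIs in structural cells, which held 8718951 of all 43747478 UMIs. It encodes a matrix protein that binds latent TGF-β1 and is also known for its part in elastic fibre assembly. In cluster 5 the mice had 496, 780, 625.2 and 395 CPM (B6→B6 1 to 4) and 415, 283 and 586 CPM (HLA→B6 1 to 3). Every one of these values was above every value in clusters 0, 1 and 2, where the highest was 158 CPM. Cluster 3 followed at 388 ± 98.6 CPM (n = 6), below the mean of 512 ± 166 CPM in cluster 5. Cluster 5 was above cluster 3 in 6 of 6 mice (exact sign permutation p = 0.0312, adjusted 0.469). The 32 cells of cluster 9, called Prox1+ endothelial cells and too few to compare by mouse, had 55 Ltbp4 UMIs or 905 CPM (95% interval 682 to 1178).

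**Figure D1:**
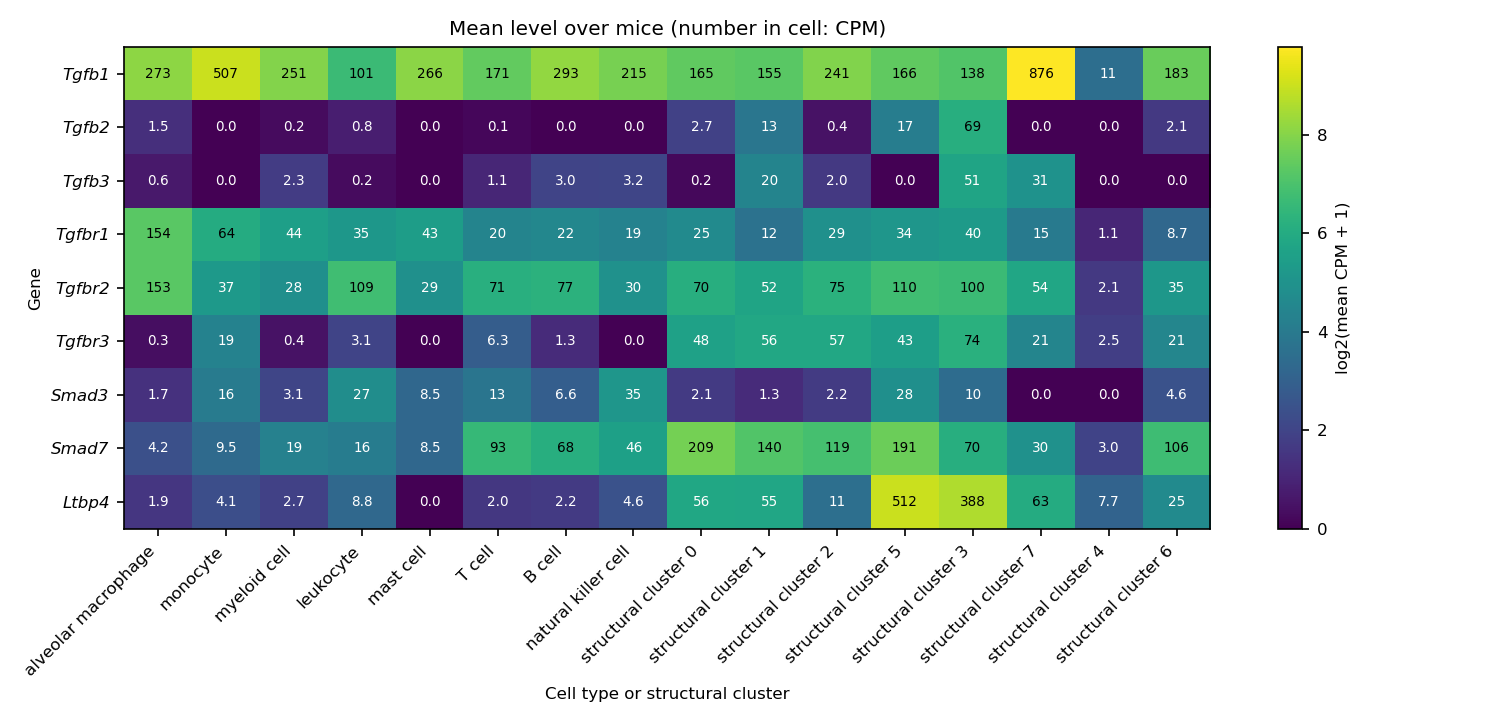
Heat map of the 9 genes (vertical) in 16 cell types and structural clusters (horizontal), coloured by log2(mean CPM + 1) over mice with at least 10 cells, with the mean CPM printed in each cell. Tgfbr1 and Tgfbr2 peak in alveolar macrophages (154 and 153 CPM), Smad7 in cluster 0 (209 CPM) and Ltbp4 in cluster 5 (512 CPM). The Tgfbr2 peak held in the B6→B6 mice (190 CPM). In the HLA→B6 mice the mean was 92.0 ± 36.6 CPM, with 116 ± 16.5 CPM in cluster 5 from 21 UMIs, within the spread.

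**Figure D2:**
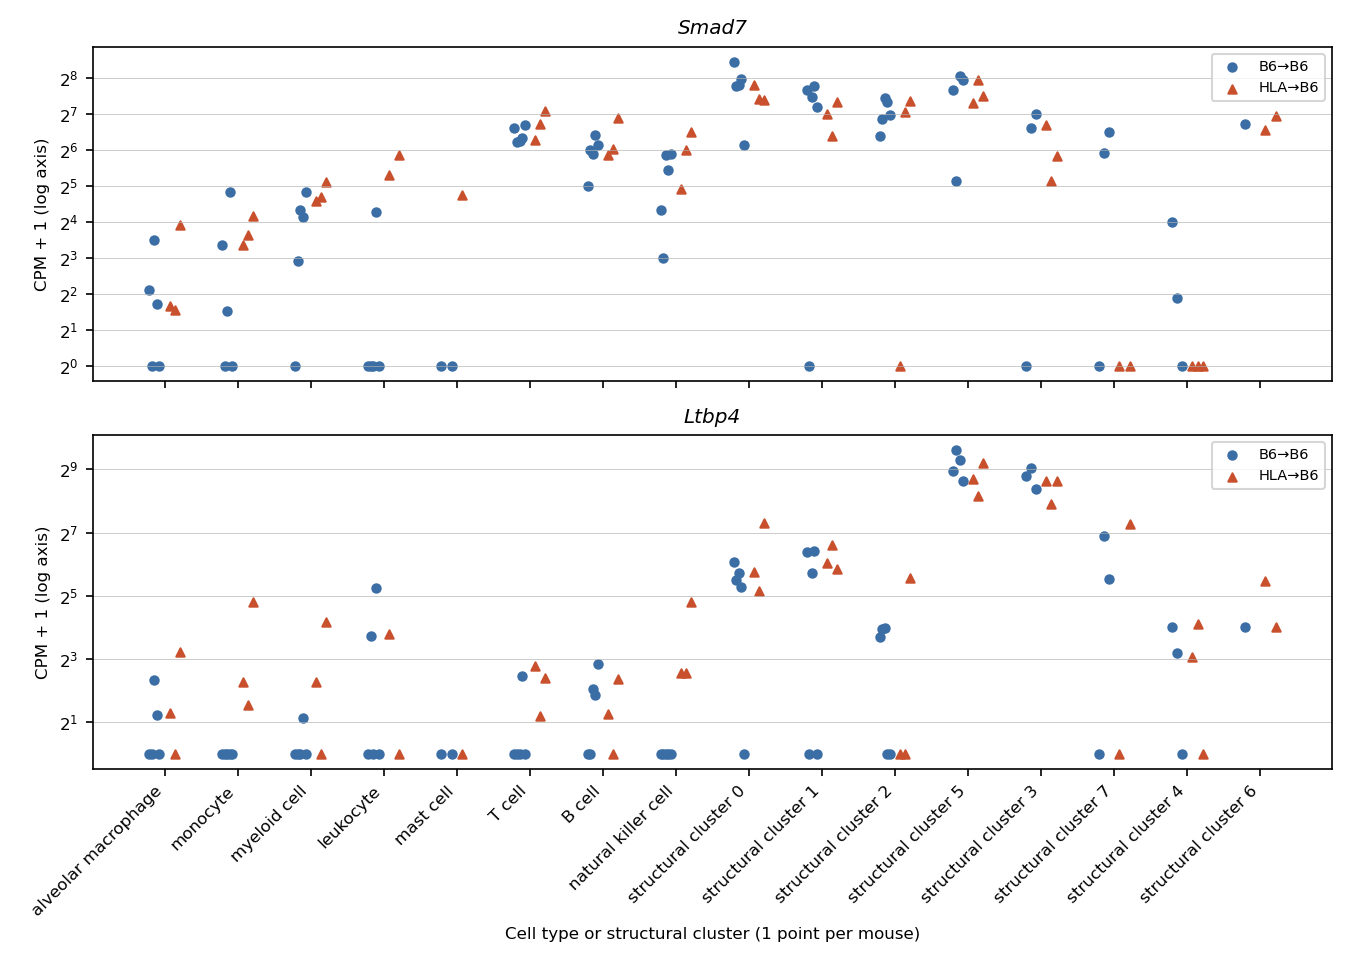
Smad7 and Ltbp4 in each mouse, as CPM + 1 on a log2 axis (vertical) in 16 populations (horizontal), with circles for B6→B6 and triangles for HLA→B6 mice. Smad7 is high in the endothelial clusters and T cells and near the bottom in alveolar macrophages, and Ltbp4 stands apart in clusters 5 and 3.

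For no gene were any of the 15 pairs of neighbouring populations in its order past an adjusted p of 0.05. With 8 mice a lone pair that went the same way in every mouse could not pass, since its adjusted p would be 0.117. Over the 16 populations the mean log2(CPM + 1) profiles of Tgfb2 and Ltbp4 had a Pearson correlation of 0.829, those of Tgfb2 and Tgfb3 0.723, and those of Tgfbr1 and Tgfbr2 0.668. The lowest was -0.24, between Tgfbr1 and Ltbp4. These values describe populations that share libraries and differ in depth.

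The genes whose profiles over the 16 populations were most like each of the 9 were found among genes with at least 50 UMIs. For Ltbp4 they were Ctgf (r = 0.973), Gas6 and Bmp4. Smad7 was closest to Cers4 (0.975), Slc24a5 and Foxo1. The profiles nearest to Tgfb2 were those of Ddr2 (0.962), Chn1 and Lama4, and those nearest to Tgfb3 were Abca8a (0.931), Foxf2 and Kcnk3. Tgfb1 was matched by Cox5a (0.947), Ppp6c and Rab11b. Among the receptors, Tgfbr1 was closest to Daglb (0.954), 9130401M01Rik and Plekhb2, Tgfbr2 to Ddx6 (0.887), Ano10 and 9930021J03Rik, and Tgfbr3 to Heg1 (0.927), Tmem98 and Slc30a1. Smad3 had the weakest best match, Spata13 (0.816), followed by Ssc4d and Agpat2.

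Cluster 3 was set against clusters 0, 1, 2 and 5 of the same mouse in the 6 mice that had both. Cluster 3 carried endothelial markers as well. The clusters were formed from these same counts, so the differences describe them and do not test them. Ltbp4 was higher in cluster 3 in 6 of 6 mice, at 388 ± 98.6 against 87.7 ± 29.8 CPM (log2 fold change 2.29, SE 0.23). Smad7 was lower in 6 of 6, at 69.6 against 198 CPM (-1.03, SE 0.27). Tgfbr3 was higher in 6 of 6 (73.7 against 44.7 CPM; 0.94, SE 0.29) and Tgfbr2 in 4 of 6 (99.7 against 59.0 CPM; 1.19, SE 0.30), while Tgfb1 differed by -0.28 (SE 0.24). Of the 5 genes that passed the filter, 3 were past the threshold in the higher direction and 1 in the lower, where 17.5% of all 5071 genes were past it in either direction. Without HLA→B6 1 only 1 of them was.

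The other pathway genes divided the same clusters. Their lists were written by hand with earlier results of these data known, so the counts describe the clusters and are no independent test. Of 13 listed target genes 9 were higher and 1 lower in cluster 3, with a median log2 fold change of 3.14 (all genes -0.07). Col1a2, a chain of type I collagen, reached 1174 against 3.46 CPM and Postn, which codes for the matrix protein periostin, 536 against 12.3 CPM, whereas Cdkn1a, the p21 cell cycle inhibitor, was lower at 517 against 1495 CPM. Col1a1, Col1a2, Col3a1, Acta2 and Tagln are both on this list and on the lists of markers for fibroblasts or smooth muscle. The 3 receptors tested, Acvrl1, Eng and Bmpr2, were all lower in cluster 3, with Acvrl1, the type I receptor ALK1 of endothelial cells, at 398 against 1203 CPM. Bambi and Pmepa1, both inhibitors of the signal, were higher (117 against 26.6 CPM and 184 against 32.4 CPM), and the inhibitory Smad6 was lower like Smad7 (86.3 against 278 CPM).

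The study's contrast was between HLA→B6 and B6→B6 grafts. Summed over all cells of a graft, 8 of the 9 genes passed the filter (not Tgfb2) and 0 differed in the edgeR quasi-likelihood test at an adjusted p of 0.05. Of all 11584 genes 0.0% did, and 815 had an unadjusted p under 0.05, none of them among the 8. Tgfb1 was at 247 ± 16.2 CPM in B6→B6 and 209 ± 25.4 CPM in HLA→B6 grafts (log2 fold change -0.11, SE 0.17) and Tgfbr2 at 80.9 ± 17.1 and 59.7 ± 8.07 CPM (-0.32, SE 0.25). In such whole-graft sums fewer cells of a type and less RNA per cell cannot be told apart. Tgfbr1, Tgfbr3, Smad3, Smad7, Ltbp4 and Tgfb3 had log2 fold changes from -0.01 to 0.33. Without TMM scaling the median of all genes was -0.15 in place of -0.01, and Tgfbr3 (-0.03), Smad3 (-0.02) and Smad7 (-0.05) turned from slightly higher to slightly lower.

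Within cell types and clusters no difference of the 9 genes passed the edgeR test either. Of 72 pairs of gene and cell type 25 passed the filter, 0 were called, and 5 had an unadjusted p under 0.05. These were 2 of 3 in alveolar macrophages (beside 1686 of all 5798 genes), 2 of 4 in B cells (283 of 6001) and 1 of 3 in monocytes (219 of 4352). Of 63 pairs of gene and structural cluster 11 passed, 0 were called, and 1 had an unadjusted p under 0.05. It was 1 of 3 in cluster 0, beside 280 of all 3645 genes. DESeq2 called 1 pair in cell types, named below. Set beside this, the share of all genes called was 0.604% in structural cells as a whole, 0.0698% in T cells, 0.117% in B cells, 12.3% in alveolar macrophages, 0.023% in monocytes, and 0.0% in natural killer cells, in myeloid cells and in the cells labelled leukocytes. By cluster it was 0.686% in cluster 0, 1.02% in cluster 1, 0.243% in cluster 2, 0.317% in cluster 3, 0.0% in cluster 4, 9.02% in cluster 5 and 0.415% in cluster 7. Mast cells, plasma cells, type 2 pneumocytes and clusters 6, 8, 9 and 10 had too few mice with 10 cells for a comparison.

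**Figure D3:**
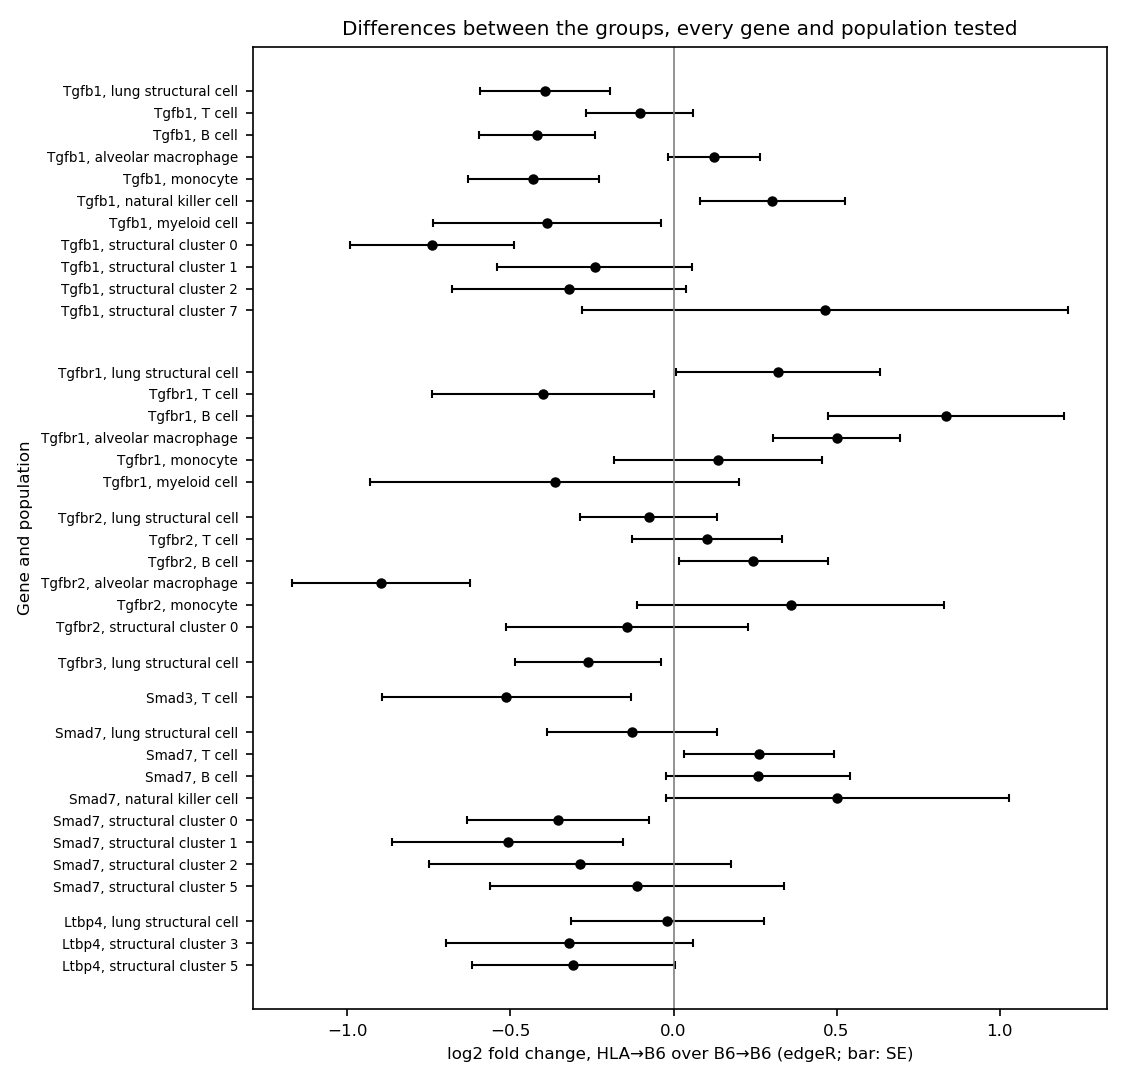
Log2 fold change between HLA→B6 and B6→B6 grafts (horizontal, with the SE as a bar) for each of the 36 pairs of gene and population that passed the filter (vertical). Most bars cross 0 or lie close to it, and the lowest value is that of Tgfbr2 in alveolar macrophages (-0.90).

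Tgfbr2 in alveolar macrophages came nearest to the threshold. The B6→B6 mice had 132, 177, 173, 217 and 249 CPM and the HLA→B6 mice had 105, 50.6 and 120 CPM. All 3 HLA→B6 values were below all 5 B6→B6 values, which was so in either direction for 22.9% of the 5798 genes tested in these cells. The means were 190 ± 44.8 and 92.0 ± 36.6 CPM, a log2 fold change of -0.90 (SE 0.27) with an adjusted p of 0.054 by edgeR. The exact permutation test over mice gave p = 0.0357, two-sided and unadjusted, the smallest that 5 against 3 mice allow.

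This value depended on the settings and on 1 mouse. It passed the threshold with DESeq2 (-0.88, adjusted p 0.0336), and without TMM scaling (-1.11, edgeR adjusted p 0.0295), and over 17 alternatives the adjusted p ranged from 0.0018 to 0.216. Without HLA→B6 2 it was -0.59 (edgeR adjusted p 0.216), and without HLA→B6 3 it was -1.09 (edgeR adjusted p 0.0396). HLA→B6 2, the lowest mouse, is the one whose cells labelled alveolar macrophages had 340 CPM of the 5 markers of the type. Summed monocyte markers in the same cells were 70.4 to 413 CPM in B6→B6 and 448, 612 and 316 CPM in HLA→B6 mice 1, 2 and 3. The part of these markers in the result was not tested.

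Tgfbr1 leaned the other way in the same cells. The B6→B6 mice had 145, 117, 124, 162 and 166 CPM and the HLA→B6 mice 234, 134 and 154 CPM, so that the groups overlapped and HLA→B6 1 alone stood above all B6→B6 mice. The log2 fold change was 0.50 (SE 0.19, edgeR adjusted p 0.113), and 0.28 without HLA→B6 1. Tgfb1 was at 279 ± 28.2 and 262 ± 15.9 CPM, with a fold change of 0.12 (SE 0.14) that turned to -0.11 without TMM scaling. In this cell type TMM moved the median of all genes from -0.26 to -0.03 and the calls from 223 higher and 690 lower to 369 higher and 343 lower. Relative to that median both receptors kept their direction.

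**Figure D4:**
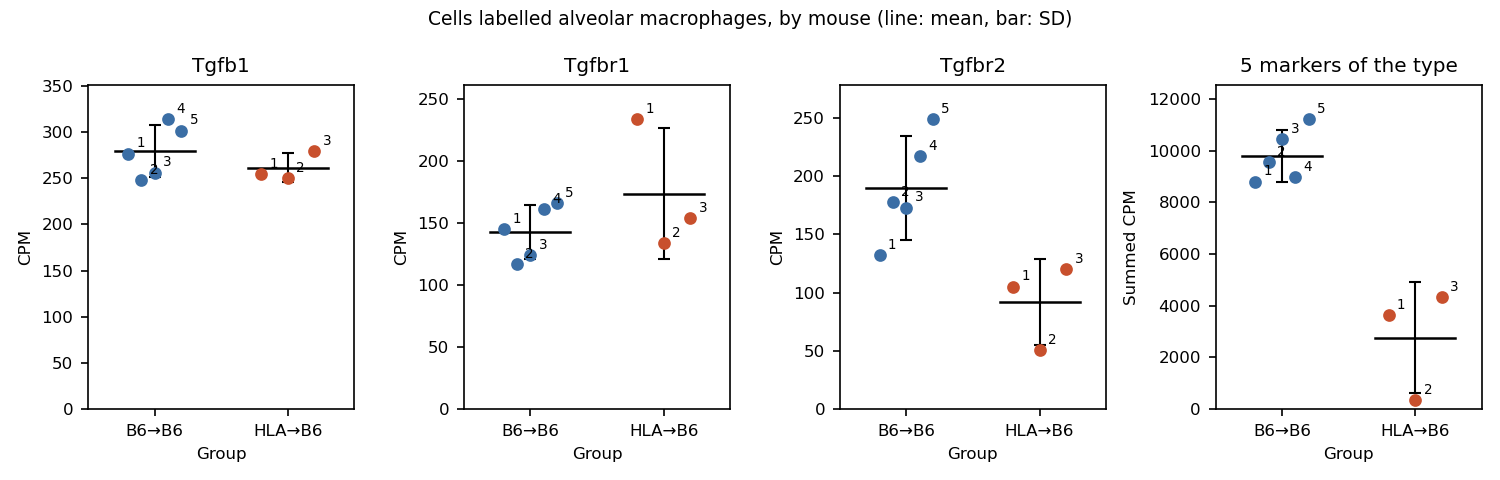
CPM of Tgfb1, Tgfbr1 and Tgfbr2 and the summed CPM of 5 alveolar macrophage markers (vertical axes, from 0) in cells labelled alveolar macrophages, by group (horizontal), 1 numbered point per mouse with the mean and SD. The 3 HLA→B6 mice lie below all 5 B6→B6 mice for Tgfbr2 and for the markers, and HLA→B6 2 is lowest in both.

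Tgfb1 was lower in HLA→B6 mice in several populations without passing the test. In cluster 0 the B6→B6 mice had 207, 199, 242, 188 and 140 CPM and the HLA→B6 mice 125, 134 and 88.7 CPM. The groups did not overlap, as for 4.53% of the 3645 genes tested there, and the log2 fold change was -0.74 (SE 0.25, edgeR adjusted p 0.305). The B6→B6 5 value came from 2 UMIs in 18 cells. In monocytes the values were 634, 559, 464, 473 and 654 CPM against 314, 424 and 534 CPM, which overlap (-0.43, SE 0.20, edgeR adjusted p 0.981). B cells (-0.42, SE 0.18) and structural cells as a whole (-0.39, SE 0.20) gave similar sizes, but natural killer cells gave 0.30 (SE 0.22) and cluster 7 gave 0.46 (SE 0.75). In cluster 5, where Tgfb1 did not pass the filter, it was at 134 ± 27.5 CPM in 4 B6→B6 and 210 ± 34.7 CPM in 3 HLA→B6 mice, from 32 and 39 UMIs, with the HLA→B6 values above the others (groups were apart in either direction for 24.3% of the 721 genes tested there). Red cell genes made up 50774 to 526391 CPM of the structural sums in B6→B6 and 57169 to 410477 CPM in HLA→B6 mice, highest in B6→B6 5 and HLA→B6 3. Without clusters 4, 6, 7 and 10 the structural Tgfb1 value was -0.48 (edgeR adjusted p 0.473).

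Tgfbr1 in B cells had means of 17.8 ± 8.53 and 28.6 ± 6.32 CPM, from 36 and 54 UMIs, and a log2 fold change of 0.84 (SE 0.36) whose adjusted p was 1 by edgeR. Smad7 differed by 0.26 in T cells (SE 0.23) and by -0.35 in cluster 0 (SE 0.28). Ltbp4 differed by -0.32 in cluster 3 (SE 0.38) and by -0.31 in cluster 5 (SE 0.31), and all 4 were far from the threshold.

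Ltbp4 was too low in monocytes for the test, and its few UMIs there all came from HLA→B6 mice. The 5 B6→B6 mice had 0 UMIs among 1504852, where 3 counts would be 1.99 CPM, and HLA→B6 mice 1, 2 and 3 had 10, 1 and 8. That was 5.56 CPM in the pooled HLA→B6 monocytes (95% interval 3.34 to 8.68). Without HLA→B6 3, left out after its value was seen, it was 3.52 CPM, and HLA→B6 2 alone was at 1.89 CPM, under the level of 3 counts in the B6→B6 group. The groups did not overlap, as for 3.54% of the 4352 genes tested in monocytes, all of them genes that passed the filter Ltbp4 did not. Natural killer cells, where Ltbp4 did not pass the filter either, had 0 UMIs of it in the 5 B6→B6 mice. In HLA→B6 mice 1, 2 and 3 they had 4.88, 4.88 and 26.9 CPM, from 2, 1 and 3 UMIs. The share of all genes apart in this way was not counted in natural killer cells. HLA→B6 3 also had the highest Ltbp4 level of the 8 mice in natural killer cells (26.9 CPM), in myeloid cells (16.8 CPM) and in alveolar macrophages (8.39 CPM), from 3, 1 and 3 UMIs. It did not lead in T cells (4.24 CPM, with 5.81 CPM in HLA→B6 1) or in B cells (4.11 CPM, with 6.09 CPM in B6→B6 5).

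Of the 55 further pathway genes (latency and activation, other receptors, Smads and their regulators, target genes), 8 pairs of gene and cell type or cluster were called between the groups by edgeR. In alveolar macrophages 3 of 23 genes tested were higher in HLA→B6 mice and 0 lower, beside the 12.3% of all genes called there. Itgb5, the integrin β5 chain that can take part in activating latent TGF-β, had 72.5, 117, 85.4, 72.4 and 67.9 CPM in B6→B6 mice and 199, 190 and 204 CPM in HLA→B6 mice. The groups were well apart, and the log2 fold change of 1.47 (SE 0.20, edgeR adjusted p 0.0039) held in 17 of 17 alternatives. Mmp14, a membrane-bound matrix protease, was at 6.59, 31.3, 2.03, 0.45 and 0 CPM against 58.3, 95.6 and 67.1 CPM (3.89, SE 0.78, edgeR adjusted p 0.0132). Tgif1, a SMAD co-repressor, was at 52.4 ± 5.62 against 81.3 ± 21.1 CPM (0.92, SE 0.21, edgeR adjusted p 0.0214). Without HLA→B6 2 the edgeR adjusted p was 0.0583 for Mmp14 and 0.104 for Tgif1, and without B6→B6 4 it was 0.0605 for Tgif1. The same drop in alveolar macrophage markers stood beside these 3 genes, and its part was not tested.

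In structural cells the called genes were all lower in HLA→B6 mice. Over all structural cells 1 of 47 genes tested was called: Cdkn2b, a cyclin-dependent kinase inhibitor, at 27.2, 23.1, 18.3, 20.5 and 5.44 CPM in B6→B6 and 4.26, 2.22 and 3.54 CPM in HLA→B6 mice. It fell by 2.40 on the log2 scale (SE 0.40, edgeR adjusted p 0.0234), but its adjusted p was 0.0514 to 0.179 without B6→B6 2, B6→B6 4, HLA→B6 1 or HLA→B6 2, and 0.197 without TMM. Without clusters 4, 6, 7 and 10, where 1.03% of all 7654 genes were called, Cdkn2b was also called (-2.31, SE 0.42, edgeR adjusted p 0.0201). In that sum Itgb5, higher in the alveolar macrophages of HLA→B6 mice, was lower at 59.4, 115, 107, 80.4 and 35.5 CPM against 15.2, 30.6 and 42.0 CPM (-1.73, SE 0.35, edgeR adjusted p 0.0349), with 1 B6→B6 mouse below the highest HLA→B6 mouse. Whether its change differed between the 2 cell types was not tested. Junb, an AP-1 transcription factor gene that TGF-β induces early, was called in 2 endothelial clusters. In cluster 1 it had 571, 1344, 278, 987 and 1022 CPM against 242, 104 and 120 CPM (-2.19, SE 0.43, edgeR adjusted p 0.0145, and 0.0822 without B6→B6 4). In cluster 5 it had 1358, 645, 794 and 992 CPM against 422, 106 and 271 CPM (-1.54, SE 0.36, edgeR adjusted p 0.0192, and 0.0506 without HLA→B6 2).

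Tagln, which codes for the actin-binding protein transgelin of smooth muscle, fell by 3.15 in cluster 5 (SE 0.75, edgeR adjusted p 0.021). Its values overlapped: 257, 33.9, 240 and 413 CPM in B6→B6 and 14.3, 35.4 and 90.2 CPM in HLA→B6 mice. Summed smooth muscle markers, Tagln among them, were 33.9 to 946 CPM and 78.7 to 271 CPM in the same cells, and endothelial markers were 4648 to 6757 CPM and 7058 to 8750 CPM. Their part in the result was not tested.

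Cluster 3 showed the widest shift of the target list, which was written with earlier results of these data known and shares genes with the markers of this cluster. Of 13 target genes tested 12 had a negative fold change, with a median of -2.04 where that of all genes was 0.02, but only 1 passed the threshold. That was Cyr61, which codes for a matricellular protein and had 547, 848 and 557 CPM in B6→B6 mice 1, 3 and 4 and 151, 102 and 56.3 CPM in the HLA→B6 mice (-2.51, SE 0.44, edgeR adjusted p 0.046). Its adjusted p was 0.123 to 0.154 without B6→B6 3, B6→B6 4, HLA→B6 2 or HLA→B6 3. Eln, the elastin gene, was at -4.13 (SE 0.91), Col1a1 at -2.81 (SE 0.65) and Acta2, the smooth muscle actin gene, at -3.12 (SE 0.99), each short of the threshold, while Cdkn1a was at 1.26 (SE 0.59).

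The make-up of cluster 3 differed between the same mice. Summed fibroblast markers were 2679, 13389 and 10089 CPM in B6→B6 mice 1, 3 and 4 and 3799, 1022 and 3829 CPM in HLA→B6 mice 1, 2 and 3. Smooth muscle markers were 3827, 636 and 730.4 CPM against 364, 647 and 169 CPM, and endothelial markers 1968, 2419.9 and 2273 CPM against 4136, 4052 and 3997 CPM. The endothelial sums were higher in all 3 HLA→B6 mice, and the part of these markers in the values of the target genes and of Tgfb2 was not tested.

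**Figure D5:**
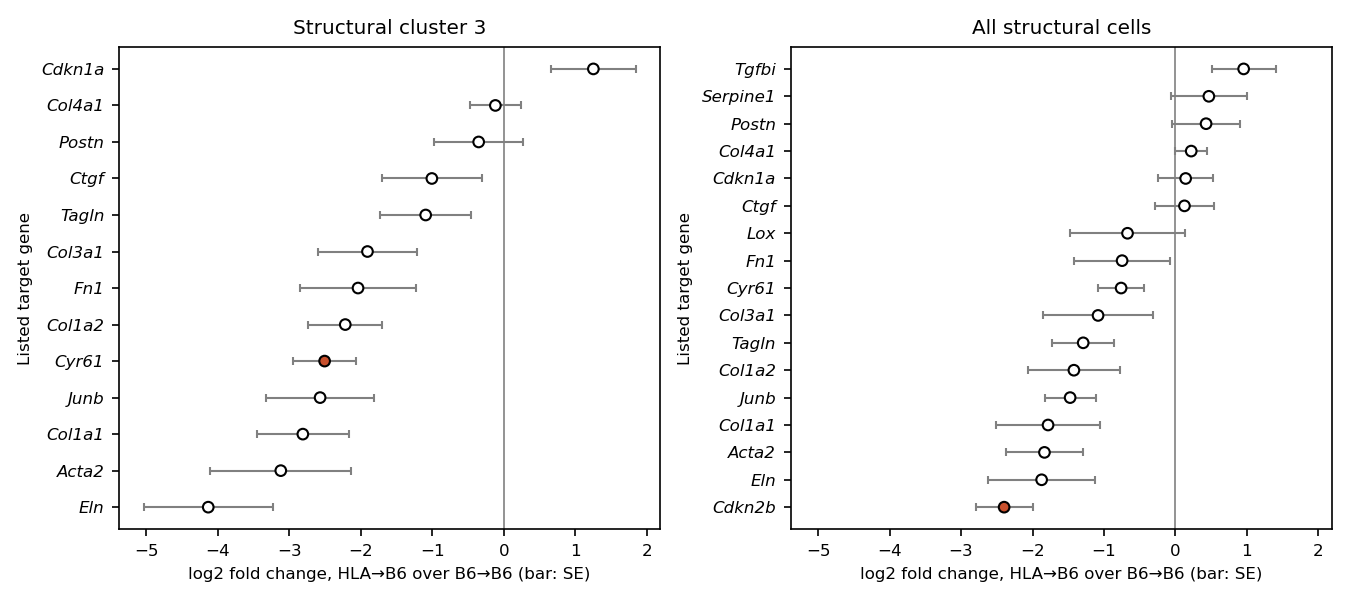
Log2 fold change between HLA→B6 and B6→B6 grafts (horizontal, with the SE as a bar) of the listed target genes that passed the filter (vertical), in cluster 3 and in all structural cells. Filled points had an edgeR adjusted p under 0.05: Cyr61 in cluster 3 (-2.51) and Cdkn2b in all structural cells (-2.40).

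In the remaining populations none of the listed pathway genes were called by edgeR: 0 of 51 tested over all cells, 0 of 19 in T cells, 0 of 9 in B cells, 0 of 17 in monocytes and 0 of 16 in cluster 0. The genes themselves lie on 7 chromosomes in GRCm38 (GENCODE vM21), all protein-coding. Tgfb1 (chr7:25687002-25705077, plus strand) and Ltbp4 (chr7:27305136-27337692, minus strand) share a chromosome, as do Smad3 (chr9:63646767-63757994) and Tgfbr2 (chr9:116084293-116175360), both on the minus strand. Tgfbr1 is at chr4:47353222-47414931 on the plus strand and Tgfbr3 at chr5:107106570-107289629 on the minus strand. Tgfb2 is at chr1:186622792-186705989 and Tgfb3 at chr12:86056745-86079041, both on the minus strand, and Smad7 is on chromosome 18.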

How the data were processed

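Per the labels and the study's methods, single cells from whole grafts were made into droplet 3′ libraries, and the authors counted UMIs per gene and cell with Cell Ranger on mm10, left out barcodes under 200 UMIs and named the cells with Seurat and clustifyr. The deposited values are whole-number counts, and 17 of the deposited cells had under 200 UMIs despite that cut. Removal of free RNA with SoupX is described, but not whether the deposited counts precede or follow it. Samples were grouped by their titles. Nothing says more of the replicates than that each is 1 mouse's graft.

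Counts were summed per mouse and population (at least 10 cells), and the groups were compared with edgeR 4.0.16 (quasi-likelihood F test, TMM, filterByExpr with a minimum count of 10, Benjamini-Hochberg over all genes tested in the population, threshold 0.05) in R 4.3.3. The study's own rank-sum tests over cells were not used, since cells are not replicates. A standard error is the fold change over the root of F. Intervals are exact Poisson 95% intervals. Neighbouring populations were compared by exact sign permutation over mice on log2(CPM + 1). The scripts were tested on simulated data. Alternatives were DESeq2 1.42.0, no TMM, no filter, replicate or linked-library blocks, leaving out each mouse, shared barcodes, 256 doublets marked by Scrublet (1.23% of cells, kept otherwise) or cells under 500 UMIs, and a minimum of 20 cells. Genes named are the 9, every called gene of the hand-written pathway lists (8 at most per fit), and the 3 most alike profiles per gene. The genes and lists were chosen with earlier results of these data known.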

Additional observations from a re-analysis of the deposited data

Results flagged for a closer look

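Of 34 groups of 4 or 5 mice in which a pair of gene and population was examined, 2 held a mouse far from the others by Dixon's criterion, and chance gives about 1 in 20. Tgfbr1 in myeloid cells was at 136.8 CPM in B6→B6 5, where the other B6→B6 mice had 22.3 to 47.0 CPM. Tgfb1 in cluster 1 was at 48.7 CPM in B6→B6 5, from 1 UMI, where the other B6→B6 mice had 181 to 204 CPM.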

How the results depend on the processing

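Within cell types 0 of the 9 genes were called, and 1 was (Tgfbr2 in alveolar macrophages) with DESeq2, without TMM, without the filter on low counts, with linked libraries as a block, with shared barcodes left out, and by the unadjusted exact permutation test. Leaving out each mouse gave 0 to 1 calls, the 1 without HLA→B6 3. Within structural clusters the count of 0 became 1 (Tgfb1 in cluster 0) by the unadjusted exact permutation test, and over all cells it was 0 throughout. Of the pathway genes 8 were called, against 14 with DESeq2, 29 without the filter, and 3 to 16 when each mouse was left out (3 without B6→B6 4 or HLA→B6 2, 16 without HLA→B6 3). Between cluster 3 and the endothelial clusters 4 of the 9 genes were called, 2 against cluster 0 alone and 1 to 4 when each mouse was left out (1 without HLA→B6 1). The cause was not tested.

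Replicate numbers are shared by the groups but nothing in the labels pairs the mice, and the correlation of same-numbered deviations was -0.18 to 0.40. With the replicate block 0 of the 9 genes were called in cell types, and Tgfbr2 in alveolar macrophages was at -0.70 (edgeR adjusted p 0.21). Cdkn2b (adjusted p 0.195), Tgif1 (0.125), Cyr61 (0.579) and Tagln (0.0853) were then no longer called. Cyr61 also lost its call with linked libraries as a block, shared barcodes left out, cells under 500 UMIs left out or no TMM. Junb lost it with at least 20 cells per mouse, in cluster 1 (0.176) and cluster 5 (0.0644), and Mmp14 with DESeq2 (0.078). Tests of a gene's effect between 2 cell types were not run, since no gene was called. By UMIs per cell, or with at least 20 cells per mouse, monocytes led for Tgfb1. Depth limits Tgfb2, Tgfb3, Tgfbr3 and Smad3 most.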
